A study of Mesocricetus auratus with 6 samples.

Results

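Aminoacyl-tRNA synthetases are the enzymes that join each amino acid to its transfer RNA. Their messages, with those of the scaffold proteins Aimp1 and Aimp2, were followed in BHK21 cells. Members were taken by gene symbol alone: 1 capital letter followed by "ars" and then nothing, 1, 2, 3, a or b, plus Eprs1, Aimp1 and Aimp2. This gave 40 of the 16078 listed genes, of which 21 encode cytosolic enzymes, 17 mitochondrial enzymes and 2 the scaffolds. BHK21 is a fibroblast-like line from baby hamster kidney, and the labels give its source as kidney of a golden hamster aged one day. In 3 libraries the cells had been transfected with STYK1/NOK, a membrane protein with a kinase-like domain (columns named N, here STYK1 1 to 3). In the other 3 they had received pCMV-Myc, the empty expression plasmid (columns named P, here vector 1 to 3). The labels give 48, without a unit, as the time from transfection to harvest, and name neither the species of the STYK1 sequence nor the plasmid that carried it. Whether a group stands for 3 cultures or for repeated libraries of 1 is not stated, so every test here weighs the groups against a library-to-library spread that may be technical.

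Each synthetase uses ATP to activate its amino acid and then loads it onto the matching transfer RNA, which sets the accuracy of the genetic code. The enzymes fall into unrelated catalytic folds, class I and class II, and Eprs1, which charges glutamate and proline in a single protein, holds a domain of each. In animal cytosol a group of them, among them Eprs1 and the enzymes for isoleucine, leucine, methionine, glutamine, lysine and arginine, is held together by Aimp1, Aimp2 and Eef1e1 in the multi-synthetase complex. Mitochondria import a separate nuclear-encoded set. Glycine and lysine are exceptions, since Gars1 and Kars1 each encode both the cytosolic and the mitochondrial form, and mitochondrial glutaminyl-tRNA is made by amidation of glutamyl-tRNA.

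The values are FPKM, fragments scaled by transcript length and by the mapped total of the library, so the levels of different genes can be compared per length. Vector 1 was the library least like the others: its correlation with the remaining 5 over 11464 genes was 0.963 to 0.976, against 0.988 to 0.993 among the others. The absolute number of reads is unknown, and relative depth, estimated from the spacing of low values, was 0.979 to 1.03 times that of STYK1 1. The hamster gene Styk1 measured 1.5, 1.8 and 1.89 FPKM in the vector libraries and 2.04, 2.46 and 2.41 FPKM with STYK1. It did not pass the test (limma-trend, adjusted p = 0.470). Its groups did not overlap, as for 13.6% of all genes in the same direction. The STYK1 mean was 1.33 times the vector mean, so a strong rise of this gene was not seen. Whether reads of the transfected sequence count toward it is not known. Of 13 fibroblast markers 12 were listed. Vim (3650 to 4141 FPKM), Pdgfra, Sparc and Fn1 were abundant, while Col1a1, Col1a2, Col3a1, Lum and Thy1 had group means below 1 FPKM. Cdh1, Epcam, Krt8 and Krt18, which define epithelium, were at 0.23 FPKM or less in every library. The 9 kidney epithelium markers summed to 6.34 to 8.19 FPKM per library, nearly all of it Cubn (3.71 to 5.07 FPKM) and Aqp1 (1.63 to 3.49 FPKM). The 4 endothelial markers summed to 4.95 to 9.52 FPKM, nearly all of it Cdh5. The summed level of 7 macrophage markers was 524 to 536 FPKM in vector and 454 to 517 FPKM in STYK1 libraries, nearly all of it Cd68 and Cd14, while Ptprc, Adgre1 and Itgam stayed at 0.16 FPKM or less. The part of these markers in the synthetase values was not tested.

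All 40 members passed the filter, a mean of at least 1 FPKM in either group. The cytosolic enzymes were the more abundant set, with a median of 50.9 FPKM (mean over the 6 libraries, range 13.0 to 331 FPKM). Their mitochondrial counterparts had a median of 10.3 FPKM (1.90 to 64.5 FPKM). Over all 11464 genes tested the median was 15.8 FPKM. In single libraries the median of the cytosolic set was 46.7 to 54.1 FPKM and that of the mitochondrial set 9.20 to 10.1 FPKM.

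**Figure D1:**
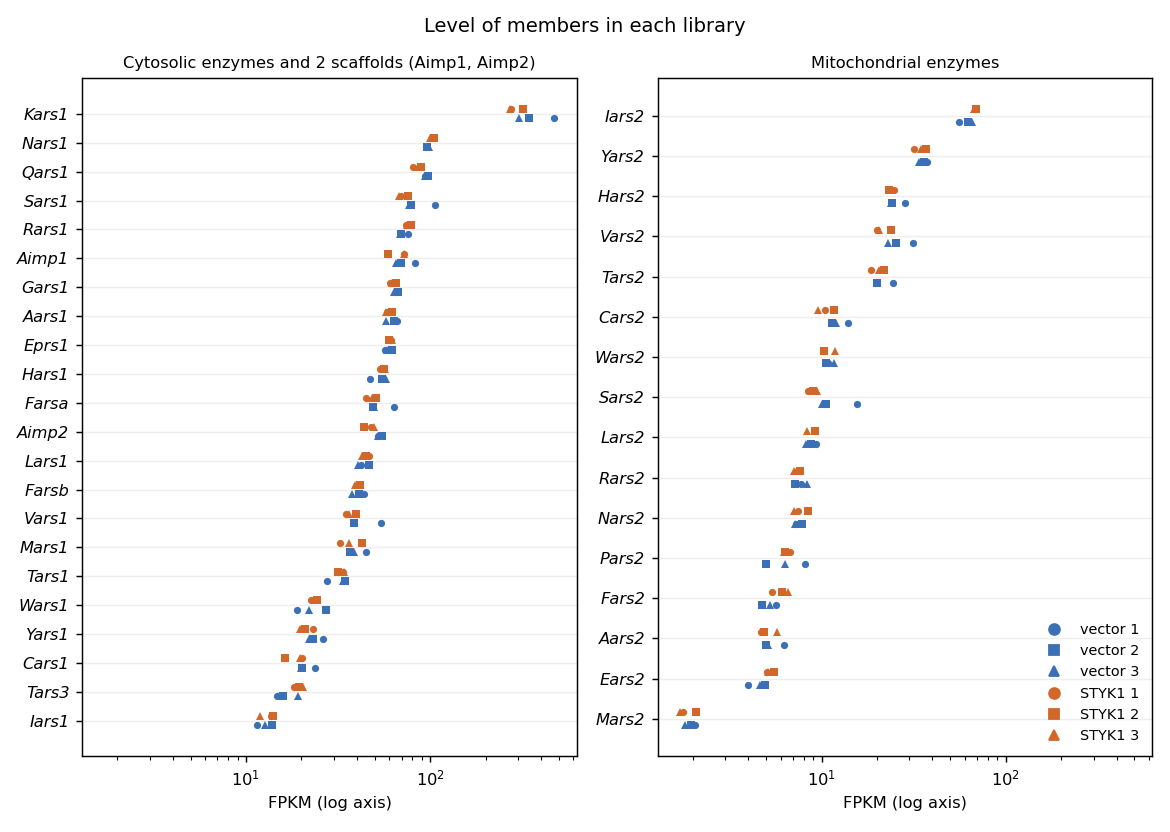
FPKM of members (log axis) in vector 1 to 3 (blue) and STYK1 1 to 3 (orange), with genes ordered by their mean. Cytosolic enzymes and scaffolds (left) lie mostly above the mitochondrial enzymes (right), Kars1 is the highest member and Mars2 the lowest, and vector 1 (blue circles) is often the outermost point.

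Kars1, the lysyl-tRNA synthetase gene (Gene ID 106021384), was the highest member in all 6 libraries. It measured 473, 342 and 305 FPKM in vector 1, 2 and 3 and 275, 321 and 270 FPKM in STYK1 1, 2 and 3. This was 2.61 times the level of Nars1, the next enzyme by mean level, or more in each library, and it placed Kars1 above 98.1% of all genes tested. Nars1, for asparagine (Gene ID 101828112), followed at a mean of 100.1 FPKM, then Qars1 for glutamine at 90.3 FPKM and Sars1 for serine at 79.1 FPKM. The lowest cytosolic enzymes were Iars1, for isoleucine, at 13.0 FPKM and Tars3, a second threonyl-tRNA synthetase, at 18.0 FPKM. Iars1 (Gene ID 101833724) measured 11.5, 13.8 and 12.7 FPKM in the vector libraries and 13.7, 14.1 and 11.99 FPKM with STYK1, so its groups overlapped.

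The 8 enzymes of the multi-synthetase complex spanned the whole range of the cytosolic set. Kars1 and Iars1, the highest and the lowest cytosolic enzymes, both belong to it. Eprs1 (60.2 FPKM), Lars1 for leucine (44.0 FPKM), Mars1 for methionine (38.6 FPKM) and Rars1 for arginine (73.5 FPKM) lay between. The scaffolds Aimp1 and Aimp2 had means of 70.1 and 50.0 FPKM, and Aimp1 was 1.26 to 1.60 times as high as Aimp2 in every library. The third scaffold, Eef1e1, is not named by the symbol rule and averaged 22.5 ± 1.61 FPKM with the vector and 20.9 ± 1.83 FPKM with STYK1 (SD, n = 3 each). Outside the complex, Farsa and Farsb encode the alpha and beta subunits of the cytosolic phenylalanine enzyme, which assembles from equal numbers of each. Their FPKM values were close, with Farsa 1.07 to 1.46 times Farsb over the 6 libraries. Tars1 was 1.63 to 2.18 times as high as its paralog Tars3. That ratio is uncertain, because the assignment of reads common to such paralogs is not known here. By catalytic fold, the 9 cytosolic class I enzymes other than Eprs1 had a median of 38.6 FPKM and the 11 of class II a median of 60.8 FPKM, with wide overlap.

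Of the mitochondrial enzymes, Iars2 for isoleucine was the highest and Yars2 for tyrosine the next. Iars2 (Gene ID 101836140) measured 55.4, 62.3 and 65.2 FPKM in the vector libraries and 67.7, 69.1 and 67.3 FPKM with STYK1. Yars2 (Gene ID 101831063) measured 37.3, 36.1 and 33.7 FPKM in the vector libraries and 31.7, 36.7 and 34.8 FPKM with STYK1. Their ranges did not touch, so Iars2 was above Yars2 in each library. Hars2, Vars2 and Tars2, for histidine, valine and threonine, had means of 24.6, 24.0 and 20.9 FPKM. The other 12 lay between 1.90 and 11.5 FPKM. Mars2, the mitochondrial methionine enzyme (Gene ID 101839323), was the lowest. It measured 2.05, 1.96 and 1.82 FPKM in the vector libraries and 1.76, 2.07 and 1.71 FPKM with STYK1. Ears2, for glutamate, was the next lowest at a mean of 4.88 FPKM.

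For 17 amino acids a cytosolic and a mitochondrial gene could be paired, giving 18 pairs because both subunits of the cytosolic phenylalanine enzyme were set against Fars2. Eprs1 entered the glutamate and the proline pair. In 16 of the 18 pairs the cytosolic gene was higher in all 6 libraries, and the median ratio of the means was 7.40. Methionine had the widest gap, with Mars1 20.4 times as high as Mars2 (18.5 to 21.9 times in single libraries). Asparagine followed at 13.3 times, then glutamate at 12.3 times and alanine at 11.6 times. The narrowest gaps in that direction were those of threonine (1.56 times), valine (1.69 times) and cysteine (1.74 times).

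Isoleucine and tyrosine ran the other way in all 6 libraries. Iars2 was 4.98 times as high as Iars1 (4.52 to 5.61 times in single libraries), and Yars2 was 1.56 times as high as Yars1 (1.38 to 1.76 times). Yars1, the cytosolic tyrosine enzyme, had a mean of 22.5 FPKM. The mean log2 ratio of mitochondrial to cytosolic gene over the 18 pairs was -2.01, -2.15 and -2.07 for vector 1, 2 and 3, and it came to -2.13, -2.07 and -2.05 for STYK1 1, 2 and 3. The group means were -2.08 ± 0.07 and -2.08 ± 0.04 (SD, n = 3 each), with p = 1 by the two-sided exact permutation test, where the smallest p that 3 libraries against 3 allow is 0.1.

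**Figure D2:**
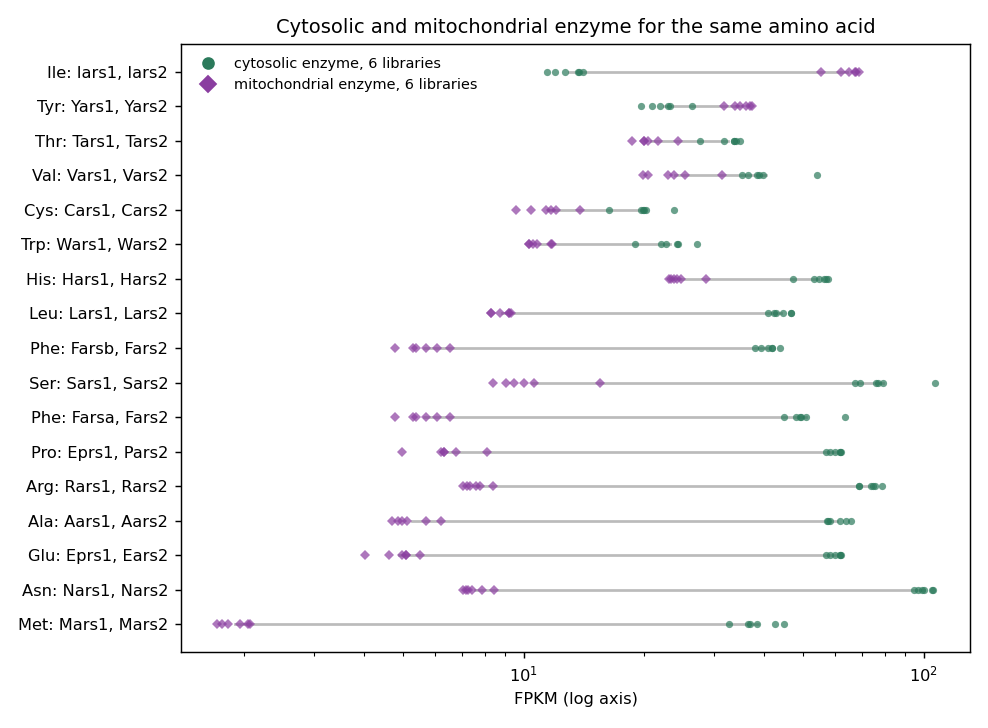
FPKM (log axis) of the cytosolic gene (green circles) and the mitochondrial gene (purple diamonds) for the same amino acid, 1 point for each of the 6 libraries, with a grey line joining the means. The mitochondrial gene lies to the right only for isoleucine (Iars1, Iars2) and tyrosine (Yars1, Yars2), and the gap is widest for methionine.

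The comparison of STYK1 with vector libraries asked which of these messages differed after STYK1/NOK transfection. No member passed the test: 0 of 40 had an adjusted p under 0.05 (limma-trend on log2(FPKM + 1), adjusted over all 11464 genes by Benjamini and Hochberg, smallest 0.469), and the background over all genes was 0%. At an unadjusted p under 0.05 there were again 0 of 40 members, against 9.84% of all genes (4.95% higher and 4.88% lower in STYK1). Without vector 1 there were 4 of 40, 2 of them higher, against 9.47% of all genes. The lowest log2 fold change among the members was -0.37, for Sars2. Their median was -0.05, with 18 above 0 and 22 below, beside a median of 0.01 and 52.7% above 0 for all genes. For the cytosolic enzymes the median was 0.0081 (11 above 0, 10 below) and for the mitochondrial enzymes -0.05 (7 above, 10 below). Both signs turned without vector 1, to -0.03 for the cytosolic set (7 of 21 above 0) and 0.0057 for the mitochondrial set (9 of 17 above 0). They also depend on the scaling. With the libraries set to equal FPKM sums the median of all genes was 0.12, that of the cytosolic set 0.12 and that of the mitochondrial set 0.055, with 29 members above 0. The split of all genes at an unadjusted p under 0.05 was then 1269 higher to 216 lower, against 568 to 560 as deposited, and it was 402 to 762 after median centring.

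The intervals of the differences were narrow for most members. For 37 of 40 the 95% interval of the log2 fold change lay within 1.5-fold in either direction, as it did for 72.4% of all genes. The 3 members whose intervals reached further were Sars2 (-0.74 to 0.0080), Kars1 (-0.72 to 0.02) and Vars2 (-0.60 to 0.0062), each toward lower values in STYK1. Sars1 (-0.585 to 0.017) was only just inside the limit. The members' median coefficient of variation over the 6 libraries was 8.82%. It was 13.4% for all genes, whose median level of 15.8 FPKM was also below the 28.6 FPKM of the members. Without vector 1 these values were 6.76% and 8.68%. Among the STYK1 libraries alone, the cytosolic enzymes had a median coefficient of variation of 4.39% and the mitochondrial enzymes 7.71%, against 7.95% for all genes. The sets also differ in level (medians of 50.9 and 10.3 FPKM), and the part of level in these values was not tested.

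**Figure D3:**
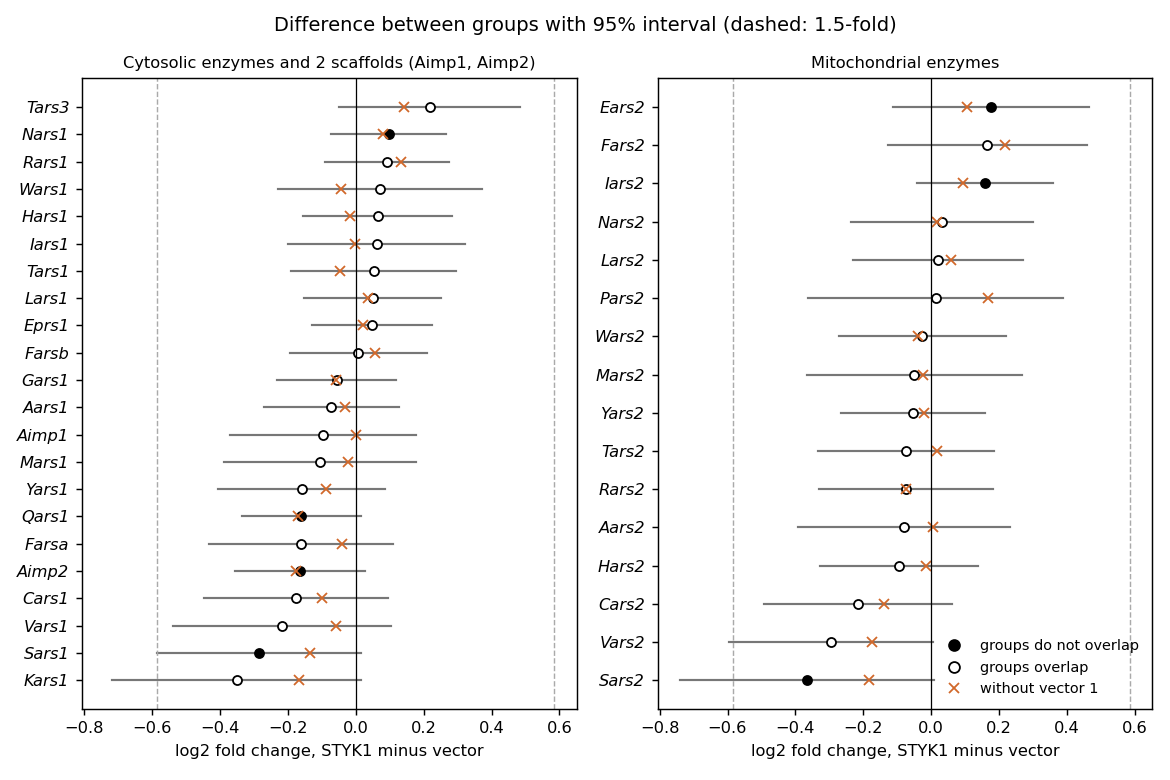
Log2 fold change of members, STYK1 minus vector, on the log2(FPKM + 1) scale, with its 95% interval (grey bar). Filled circles mark members whose groups do not overlap, crosses give the value without vector 1, and every interval drawn crosses 0.

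The values of the groups did not overlap for 8 of 40 members, against 23.1% of all genes, a share no higher than the background. Of these, 4 were higher and 4 lower in STYK1 libraries (13.6% and 9.44% of all genes). Without vector 1 this held for 10 members (29.7% of all genes), 6 higher and 4 lower (17.9% and 11.8% of all genes). Nars1, Iars2 and Ears2 were among those with higher values. Those with lower values were Sars1, Qars1, Sars2 and Aimp2. Rars1 and Fars2 joined the higher ones when vector 1 was left out.

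Within the complex, Qars1, the glutamine enzyme (Gene ID 101842697), measured 94.0, 97.7 and 94.2 FPKM in the vector libraries and 81.2, 88.8 and 85.8 FPKM with STYK1. Here vector 1 lay beside vector 3, and the log2 difference of -0.16 ± 0.08 (SE) became -0.17 without it (unadjusted p = 0.0699 with all libraries, limma-trend adjusted p = 0.469).

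The scaffold Aimp2 (Gene ID 101839053), the core to which several enzymes of the complex bind, measured 51.9, 54.5 and 52.1 FPKM in the vector libraries and 47.9, 43.9 and 49.5 FPKM with STYK1. Its log2 difference was -0.16 ± 0.08 (SE), and -0.18 without vector 1. Aimp1 overlapped between the groups, at 82.7, 69.3 and 65.6 FPKM against 72.2, 59.1 and 71.8 FPKM, and both scaffolds had their lowest value in STYK1 2. Kars1 had the lowest log2 fold change of the complex, -0.35 ± 0.16 (SE), with vector 1 the highest at 473 FPKM. The value was -0.17 without that library, and STYK1 2 at 321 FPKM lay above vector 3 at 305 FPKM. Eprs1, Lars1, Iars1, Rars1 and Mars1, also of the complex, had log2 fold changes between -0.11 and 0.09. Eprs1 was the steadiest member of all, at 57.1, 62.0 and 58.5 FPKM against 61.7, 60.1 and 61.8 FPKM, a coefficient of variation of 3.35%.

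Among the cytosolic enzymes outside the complex, Nars1 measured 94.5, 96.7 and 98.9 FPKM in the vector libraries and 105, 105 and 100.4 FPKM with STYK1. The groups were apart, but by little, with a log2 difference of 0.10 ± 0.07 (SE). Sars1, the serine enzyme (Gene ID 101826020), measured 106, 79.0 and 76.7 FPKM in the vector libraries and 69.4, 75.9 and 67.4 FPKM with STYK1. Vector 1 was far above the other 5, and vector 3 and STYK1 2 differed by under 1 FPKM. Its log2 difference of -0.28 ± 0.13 (SE) was -0.14 without vector 1. Vars1 for valine showed the same position of vector 1, at 54.1 FPKM there and 35.1 to 39.8 FPKM in the other 5 libraries, and its log2 fold change of -0.22 was -0.06 without it. The alpha subunit gene Farsa was similar (63.6 FPKM in vector 1, 44.7 to 50.8 FPKM elsewhere). Tars3 had the highest log2 fold change of this set, 0.22 ± 0.12 (SE), and 0.14 without vector 1, its lowest library. It measured 14.8, 15.9 and 19.2 FPKM in the vector libraries and 18.3, 19.5 and 20.5 FPKM with STYK1, so the groups overlapped at vector 3. Cars1 for cysteine and Yars1 had log2 fold changes of -0.18 and -0.16 with overlapping groups (-0.10 and -0.09 without vector 1). The log2 fold changes of Aars1, Farsb, Gars1, Hars1, Tars1 and Wars1 lay between -0.07 and 0.07. Gars1, which also supplies the mitochondrial glycine enzyme, stayed between 60.6 and 66.8 FPKM in all 6 libraries.

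Of the mitochondrial enzymes, Iars2 had groups that did not overlap, with a log2 difference of 0.16 ± 0.09 (SE), and 0.09 without vector 1, its lowest library. Ears2, the glutamate enzyme (Gene ID 101825524), measured 4.01, 4.96 and 4.61 FPKM in the vector libraries and 5.08, 5.51 and 5.09 FPKM with STYK1. The closest values of the groups were 4.96 and 5.08 FPKM. The log2 difference was 0.18 ± 0.13 (SE), and 0.11 without vector 1, its lowest library. Sars2, the serine enzyme (Gene ID 101842842), measured 15.5, 10.6 and 10.0 FPKM in the vector libraries and 8.41, 9.02 and 9.45 FPKM with STYK1. Its log2 difference of -0.37 ± 0.16 (SE) was the largest in size of any member (limma-trend, unadjusted p = 0.0540, adjusted p = 0.469), and it was -0.18 without vector 1. Vars2 had a log2 difference of -0.29 ± 0.13 (SE), with 31.3 FPKM in vector 1 and 19.9 to 25.3 FPKM in the other libraries. Without vector 1 it was -0.17. The cytosolic and the mitochondrial serine enzymes both had their highest value in vector 1 and groups that did not overlap. The first of these features was not particular to serine. Both enzymes for valine, alanine, cysteine and tyrosine had it too, and vector 1 was the highest library for 47.5% of members and 37.1% of all genes. Fars2, for phenylalanine, measured 5.69, 4.76 and 5.28 FPKM in the vector libraries and 5.38, 6.09 and 6.54 FPKM with STYK1, a log2 difference of 0.17 that became 0.22 without vector 1. Cars2, for cysteine, had a log2 fold change of -0.22 with overlapping groups (-0.14 without vector 1). The log2 fold changes of Aars2, Hars2, Lars2, Mars2, Nars2, Pars2, Rars2, Tars2, Wars2 and Yars2 lay between -0.10 and 0.03. Pars2, for proline, was the most uneven of these 10, at 8.11, 4.98 and 6.33 FPKM among the vector libraries alone.

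Vector 1 took the outermost place for most members, as it did for most of all genes tested. It was the highest of the 6 libraries for 19 of 40 members (47.5%) and the lowest for 11 (27.5%), against 37.1% and 36.2% of all genes. Relative to the vector mean, the mean level of the cytosolic set on the log2(FPKM + 1) scale was 0.04, 0.0063 and -0.04 for vector 1, 2 and 3, and it was -0.05, 0.0015 and -0.06 for STYK1 1, 2 and 3. For the mitochondrial set it was 0.09, -0.05 and -0.04 against -0.08, 0.0021 and -0.03. The groups overlapped in both sets, since STYK1 2 lay above vector 3 in each. Leaving vector 1 out made the log2 fold change smaller by over 1.5 times in 21 of 40 members and gave the other sign in 7, against 42.6% and 19.0% of all genes.

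**Figure D4:**
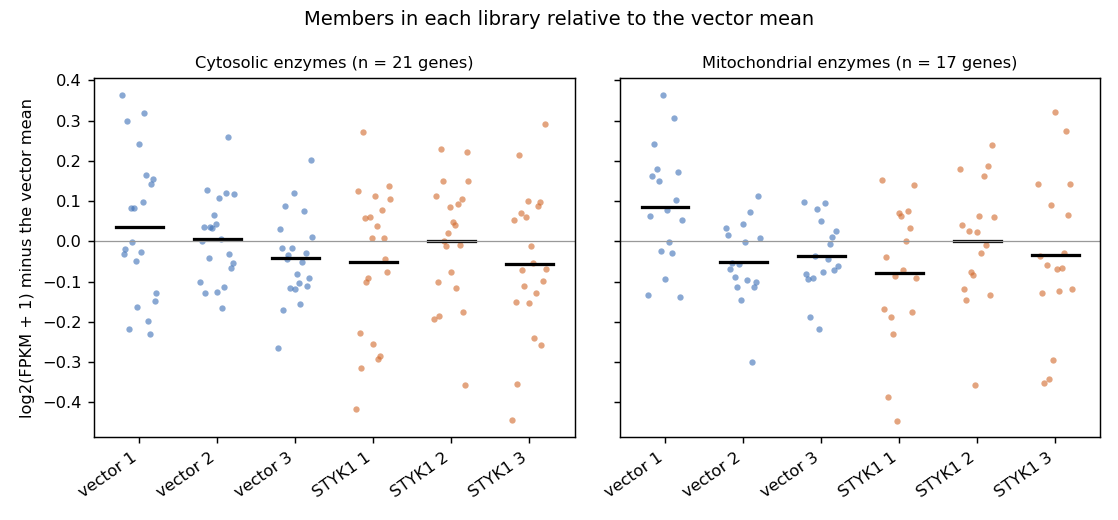
Each enzyme in each library on the log2(FPKM + 1) scale, relative to its own mean in the vector libraries, for the 21 cytosolic (left) and 17 mitochondrial (right) enzymes, with a black bar at the mean of the set. The bars stay between -0.08 and 0.09, and STYK1 2 lies above vector 3 in both sets.

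Genes that work beside the synthetases were read from lists chosen by function. None of their tested members passed (limma-trend, 0 with an adjusted p under 0.05 in any list). Of 5 measured genes (7 listed) whose products clear wrongly charged or stalled transfer RNA, 0 were higher and 1 was lower at an unadjusted p under 0.05 (4.95% and 4.88% of all genes), and the median log2 fold change was -0.22 (-0.03 without vector 1). That gene was Dtd2, which encodes a transfer RNA deacylase. Dtd2 measured 21.6, 19.8 and 19.1 FPKM in the vector libraries and 13.4, 16.6 and 15.1 FPKM with STYK1, a log2 difference of -0.40 ± 0.11 (SE). Its groups were well apart, and the value without vector 1 was -0.36.

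Of 18 genes for the processing, splicing, export and special charging of transfer RNA, 1 was higher and 2 were lower at an unadjusted p under 0.05 (again beside 4.95% and 4.88% of all genes), with a median log2 fold change of 0.01. Trnt1, which adds the terminal CCA that every synthetase needs on its substrate, measured 22.2, 20.5 and 23.9 FPKM in the vector libraries and 26.8, 28.0 and 24.7 FPKM with STYK1. Elac2, the nuclease that cuts the trailer off the precursor, measured 18.9, 16.6 and 16.8 FPKM against 14.9, 14.4 and 13.5 FPKM. Tsen34, a subunit of the splicing endonuclease, had means of 105 ± 17.2 and 85.3 ± 6.46 FPKM (SD, n = 3 each), in the same order. The log2 differences of the 3 genes were 0.25, -0.27 and -0.29, and 0.25, -0.22 and -0.16 without vector 1.

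The 6 genes of mitochondrial transfer RNA amidation, formylation and initiation had a median log2 fold change of -0.07, or 0.01 without vector 1. At an unadjusted p under 0.05 there were 0 of 6, against 9.84% of all genes. Gatc, a subunit of the amidotransferase that completes mitochondrial glutaminyl-tRNA, had the smallest p, with a log2 difference of -0.31 (-0.17 without vector 1).

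ATF4 is the transcription factor of the amino acid response and is known to drive many cytosolic synthetase genes. Of 26 tested genes of this response other than synthetases, 3 were higher and 1 was lower at an unadjusted p under 0.05, where the shares of all genes were 4.95% and 4.88%, and the median log2 fold change was -0.08, or 0.03 without vector 1. Atf4 itself, singled out for its role after its values were seen, measured 346, 266 and 257 FPKM in the vector libraries and 237, 263 and 244 FPKM with STYK1, with vector 1 again the highest. Phgdh, the entry enzyme of serine synthesis, measured 55.1, 50.5 and 48.4 FPKM in the vector libraries and 43.6, 44.3 and 41.9 FPKM with STYK1. Among the 26, groups did not overlap for 3 higher genes (Pycr1, Cebpg and Eif2ak3) and 2 lower ones (Phgdh and Mthfd2). The shares of all genes were 13.6% and 9.44%. Pycr1, an enzyme of proline synthesis, measured 1.94, 2.72 and 2.51 FPKM in the vector libraries and 3.76, 3.22 and 3.34 FPKM with STYK1. Cebpg, a dimer partner of ATF4, had means of 21.0 ± 1.16 and 24.9 ± 1.54 FPKM in the same order, and Eif2ak2, a kinase of the initiation factor eIF2, had 8.77 ± 1.66 and 11.3 ± 0.876 FPKM (SD, n = 3 each).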

How the data were processed

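Per the labels' protocols, RNA of 6 BHK21 samples was extracted with Trizol and made into Illumina TruSeq RNA libraries. The authors deposited 1 FPKM value for each gene and library, per the file headers. The submitters' processing notes name Bowtie 0.12.2 and the mouse builds mm8 and mm9 without a role. The rows carry NCBI Gene IDs, of which 15049 of 16078 matched the hamster table of RefSeq assembly BCM_Maur_2.0, used for symbols only. Not given in the sources used here are the genome behind the FPKM values, the strand setting and the handling of shared reads.

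FPKM values are not counts, so genes averaging 1 FPKM or more in either group were fitted on log2(FPKM + 1) with limma-trend (limma 3.58.1, R 4.3.3, robust empirical Bayes, two-sided), with no further scaling and Benjamini-Hochberg adjustment over 11464 genes. The script was tested on simulated data. Folds and differences are on the log2(FPKM + 1) scale, which understates changes of low genes. Level ratios within a library used plain FPKM and Python 3.11.15. Relative depth was the most frequent log2 ratio of genes at 0.8 to 6 FPKM (bandwidth 0.005).

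Members and lists were chosen with earlier results of these data known. Members described in full were those whose groups did not overlap or whose unadjusted p was under 0.05, and the 2 highest and 2 lowest of each set, with up to 4 genes of smallest p per related list. Some members are counted in the totals and sets but are not reported here by name or drawn as named genes. The alternatives were other pseudocounts, filters and scalings, quality weights, a replicate block and each library left out.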

Additional observations from a re-analysis of the deposited data

How the results depend on the processing

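No member passed in any of the 16 alternatives (limma-trend, smallest adjusted p 0.1, with quality weights). Over all genes 0 were called, 24 with quality weights and 0 to 2 with 1 library left out. Members at an unadjusted p under 0.05 went from 0 to 5 with equal FPKM sums, all higher in STYK1. The share of all 11477 genes was then 12.9% (1269 higher, 216 lower). After median centring there were 5 members, all lower, beside 10.2% of all 11464 genes (402 higher, 762 lower). The shares of all genes given next also count both directions. They went to 4 (1 higher) after quantile normalization (9.11%) and to 7 (1 higher) with quality weights (20.6%). Without vector 1 they were 4 (2 higher, 9.47%), without vector 2 they were 3 (1 higher, 12.8%) and without vector 3 they were 5 (1 higher, 14.9%). Without STYK1 2 there was 1 (0 higher, 5.01%), and 0 without STYK1 1 or 3. With equal sums the median of all genes was 0.12 in place of 0.01, and 29 rather than 18 members were above 0. With quality weights 14 were above 0. The cytosolic median of 0.0081 became 0.12 with equal sums and -0.053 with quality weights, and ran from -0.044 to 0.035 with 1 library left out. The mitochondrial median of -0.05 became 0.055 with equal sums and ran from -0.055 to 0.0057 with 1 library left out, turning sign without vector 1. The mean mitochondrial to cytosolic log2 ratio differed by -0.0061 between groups, -0.044 to 0.028 with 1 library left out. The deposited FPKM sums were 619840, 554681 and 557946 for vector 1, 2 and 3, and 528160, 530277 and 542638 for STYK1 1, 2 and 3. Each vector sum was above each STYK1 sum, so setting the sums equal raised STYK1 values relative to vector values. Why the sums differ, and the cause of the other moves, was not tested. The replicate numbers gave no clear sign of pairing the libraries (same-numbered deviations from the group means correlated at -0.27, -0.16 and 0.11). This check cannot exclude pairing, because vector 1, the library least like the others, enters each vector mean. A replicate block left 0 genes and 0 members called, with 831 in place of 1128 genes at an unadjusted p under 0.05.

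The sign held in all alternatives for 21 members, among them the 8 whose groups did not overlap. The other 19 had log2 fold changes of at most 0.11 in size. Those that changed sign with equal FPKM sums were Aars1 (0.0387), Aars2 (0.0138), Aimp1 (0.0136), Gars1 (0.0539), Hars2 (0.0124), Mars1 (0.00357), Mars2 (0.024), Rars2 (0.0246), Tars2 (0.0333), Wars2 (0.076) and Yars2 (0.0548), with the related genes Eef1e1 (0.0066), Qrsl1 (0.0296) and Rraga (0.00534). With quality weights they were Aimp1 (0.0354), Hars1 (-0.0188), Iars1 (-0.0111), Nars2 (-0.0281), Tars1 (-0.0285), Wars1 (-0.109) and Gatb (0.0456). Median centring changed Farsb (-0.0202), Lars2 (-0.00878) and Pars2 (-0.0155), and quantile normalization changed Lars2 (-0.0407), Nars2 (-0.0361) and Pars2 (-0.0603). With 1 library left out, signs changed in Aars2 (-0.154 to 0.00574), Aimp1 (-0.165 to 5.81e-05), Farsb (-0.0438 to 0.0571), Hars1 (-0.0171 to 0.125), Iars1 (-0.00255 to 0.127), Lars2 (-0.0179 to 0.0637), Nars2 (-0.0326 to 0.0823), Pars2 (-0.137 to 0.166), Tars1 (-0.0464 to 0.113), Tars2 (-0.123 to 0.0159), Wars1 (-0.0444 to 0.201), Wars2 (-0.0848 to 0.0135), Yars2 (-0.102 to 0.00255), Gatb (-0.216 to 0.0137) and Qrsl1 (-0.189 to 0.0437). Quality weights were not run for the level ratio, which rests on a permutation test, and the filter at 5 FPKM leaves Mars2 out. Depth limits what can be said of the lowest enzymes, and no counting interval can be given without read totals.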

Other observations

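Amino acid transporters supply what the synthetases consume. Of 15 listed genes, mostly of the plasma membrane but with the lysosomal Slc38a9 among them, 14 were measured and 12 tested. Of these 0 passed (limma-trend, adjusted p) and 0 had an unadjusted p under 0.05, beside 9.84% of all genes. Their summed level was 394.9 to 407 FPKM in vector and 389 to 408 FPKM in STYK1 libraries, and the median log2 fold change was 0.05 (-0.03 without vector 1). Groups did not overlap for 2 of the 12, Slc7a5 and Slc38a1, both higher in STYK1, beside 13.6% of all genes in that direction. Slc7a5, the light chain of the leucine transporter, measured 18.0, 19.1 and 19.2 FPKM in vector and 21.8, 19.8 and 21.3 FPKM in STYK1 libraries. Slc1a5, the glutamine transporter, overlapped, at 54.6, 43.8 and 44.1 FPKM against 39.9, 45.7 and 38.3 FPKM.

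Of 12 genes of amino acid sensing, 0 passed (limma-trend) and 0 had an unadjusted p under 0.05, beside 9.84% of all genes. Their median log2 fold change was 0.05 (0.07 without vector 1). Rragc and Rptor, 2 of the 12, had groups without overlap and were higher in STYK1, beside 13.6% of all genes in that direction. Rragc, a GTPase that brings mTORC1 to the lysosome, measured 61.3, 62.6 and 63.4 FPKM in vector and 65.5, 74.3 and 69.6 FPKM in STYK1 libraries.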
